A study of Mus musculus with 8 samples.

Results

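The 8 genes described here encode small leucine-rich proteoglycans of the extracellular matrix: biglycan (Bgn), decorin (Dcn), lumican (Lum), fibromodulin (Fmod), prolargin (Prelp), asporin (Aspn), osteoglycin (Ogn) and podocan (Podn). They were chosen by gene name, and all 8 are listed among the 24421 genes of each expression file. The samples are 8 RNA-seq libraries of MCa-P1362, a cell line grown out of a spontaneous mammary adenocarcinoma of a female Balb/c mouse, so that all of them trace back to 1 tumour of 1 animal. Cells were sorted on EpCAM, an adhesion protein of epithelial cells, into EpCAM+ and EpCAM- fractions. Each fraction carries a label of coculture or monoculture, which gives 4 groups of 2 libraries. All groups were grown in high-glucose DMEM with 10% serum, and none is described as treated or engineered. The protocol says that sorted cells were frozen at once or after growth and 1 passage, and the labels do not say whether that is the difference between coculture and monoculture. They do not say either whether the 2 libraries of a group came from separate cultures, so a p-value here reflects how far apart the 2 libraries of each group lie, and that spread may be technical.

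Levels are in FPKM, fragments per kilobase of transcript scaled to a total of mapped fragments. Scaling by gene length is meant to let 1 gene be set against another. The gene lengths and any scaling between libraries are not named, so comparisons between genes rest on the authors' values. The FPKM of a library summed to 387489 to 414612, and 10634 to 11119 genes per library reached 1 FPKM. The number of reads behind a value is unknown. On a log2 scale, libraries correlated at 0.998 within groups and at 0.722 to 0.986 between groups. Epcam itself followed the labels of the fractions. Epcam averaged 201 ± 1.53 FPKM (SD, n = 2) in coculture EpCAM+ cells, where the EpCAM- mean was 0.35 ± 0.0128, and the monoculture means were 131 ± 2.84 and 0.243 ± 0.0244. The 10 fibroblast markers, which include the collagen chain Col1a1, summed to 8068 to 8137 FPKM in the EpCAM- libraries of both cultures. They summed to 167 to 170 in coculture EpCAM+ and 32.4 to 33.7 in monoculture EpCAM+. The like sums of the EpCAM- cultures hide markers that moved both ways. From coculture to monoculture EpCAM-, mean S100a4 went from 131 to 995 FPKM and Thy1 from 87.4 to 229. Fap went from 5.26 to 0.192 FPKM. Leukocyte markers summed to at most 3.89 FPKM in any library, with Adgre1 and Cd3e at 0 throughout, and endothelial markers to at most 1.27.

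Small leucine-rich proteoglycans share a curved core protein built of leucine-rich repeats, to which most of them attach chondroitin, dermatan or keratan sulfate chains. Their core proteins bind collagen fibrils and set how the fibrils pack and how thick they grow. Several also bind growth factors such as TGF-beta, and biglycan and decorin set free from the matrix signal through receptors on nearby cells. In the mammary gland and its tumours they are known as products of fibroblasts and other stromal cells rather than of the epithelium. By sequence, Bgn, Dcn and Aspn form class I, Lum, Fmod and Prelp class II, Ogn class III and Podn class V. Members of the family sit in clusters in the mouse genome.

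Positions are those of the mm10 assembly (GRCm38) with the GENCODE annotation. Aspn (chr13:49544443-49567565) and Ogn (chr13:49608046-49624501) lie 40.5 kb apart on the + strand, with the relative Omd between them and Ecm2 11.7 kb before Aspn. All 4 lie within the span of Cenpp (chr13:49464023-49652785), a centromere protein gene on the opposite strand. Whether the authors counted reads by strand is not given in the sources used here, so reads from Cenpp and from these genes cannot be told apart wherever their exons overlap. Dcn (chr10:97479609-97518143) and Lum (chr10:97565128-97572703) are neighbours 47.0 kb apart, followed by Kera and Epyc. Prelp (chr1:133910304-133921414, - strand) has Optc 2.3 kb away on one side and Fmod (chr1:134037254-134048277) 115.8 kb away on the other. Bgn (chrX:73483602-73495933) and Podn (chr4:108014791-108096445) have no other gene of this family named here beside them.

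The 250 bases before the transcription start are shown for 4 genes, from RefSeq on GRCm38.p6. Bgn is shown as the most abundant gene of the family in these cells. Prelp and Aspn are shown as the tested members with the largest log2(FPKM + 1) differences between the EpCAM- cultures, and Ogn as the neighbour of Aspn that did not differ in the same way. RefSeq windows were matched for 6 of the 8 genes, and Dcn and Lum were not matched. Each sequence runs 5′ to 3′ on the strand of its gene, and capitals mark 1 motif per gene on either strand. The motif is CCCTCCC for Bgn and Prelp, TATAAA for Aspn and GGAATG for Ogn, and overlapping matches run together.
Bgn, chrX:73483351-73483600, + strand: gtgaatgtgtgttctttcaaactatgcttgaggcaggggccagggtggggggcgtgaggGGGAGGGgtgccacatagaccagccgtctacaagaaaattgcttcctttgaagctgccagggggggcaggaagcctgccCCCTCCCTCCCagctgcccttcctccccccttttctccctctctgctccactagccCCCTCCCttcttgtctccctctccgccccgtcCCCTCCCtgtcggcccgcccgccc
Prelp, chr1:133921402-133921651, - strand: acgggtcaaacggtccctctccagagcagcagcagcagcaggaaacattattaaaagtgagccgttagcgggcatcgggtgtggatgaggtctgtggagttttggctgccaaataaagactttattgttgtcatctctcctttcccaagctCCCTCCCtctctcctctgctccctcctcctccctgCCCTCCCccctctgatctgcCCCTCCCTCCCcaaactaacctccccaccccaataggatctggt
Aspn, chr13:49544193-49544442, + strand: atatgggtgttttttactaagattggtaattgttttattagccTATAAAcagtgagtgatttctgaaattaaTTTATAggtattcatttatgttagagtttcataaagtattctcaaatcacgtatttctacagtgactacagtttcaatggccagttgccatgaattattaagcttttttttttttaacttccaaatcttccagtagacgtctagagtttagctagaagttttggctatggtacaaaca
Ogn, chr13:49607765-49608014, + strand: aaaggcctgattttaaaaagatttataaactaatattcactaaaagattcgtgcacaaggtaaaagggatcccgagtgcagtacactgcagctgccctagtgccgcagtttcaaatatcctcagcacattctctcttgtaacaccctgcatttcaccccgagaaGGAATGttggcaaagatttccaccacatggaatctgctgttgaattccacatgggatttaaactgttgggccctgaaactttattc

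The windows of the chromosome 13 neighbours were poor in G and C, at 30.0% for Aspn and 42.0% for Ogn, and those of Bgn and Prelp were at 64.4% and 55.6%. The median over 32851 windows of the same length was 52.4%. TATAAA, the core of the TATA box, occurred at 2 separate places in the window of Aspn and, counted over both strands, 2 times in that of Ogn. The 2 matches of Ogn overlap in a single stretch that reads as the motif on either strand. At least 1 match was found in 12.4% of all windows. The matches of Aspn began 178 and 207 bases before the start. CCCTCCC occurred 5 times in the window of Bgn and 4 times in that of Prelp, while Fmod and both windows of Podn held 1 match each and 19.7% of all windows held at least 1. GGAATG, the core that TEAD factors bind, occurred 1 time in the window of Ogn and in 12.6% of all windows. Of the other motifs searched on both strands, GGGCGG (32.7% of all windows) was found in Bgn and in the GC-rich window of Podn, CCAAT (33.9%) in Prelp and Aspn, and CANNTG (66.2%) in each of the 6 genes except Prelp. TGANTCA (6.75%) was found in none of the windows of these 6 genes. These are matches of letters and not sites at which binding was measured.

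Biglycan, which carries chondroitin or dermatan sulfate chains and binds collagen, was by far the most abundant member. It stood at 1549.6 and 1556.0 FPKM in the coculture EpCAM- libraries and at 2172 and 2158 FPKM in the monoculture EpCAM- libraries. It was at 26.2 and 27.8 FPKM in coculture EpCAM+ and at 1.95 and 1.85 FPKM in monoculture EpCAM+. No 2 groups overlapped, and the order was monoculture EpCAM-, coculture EpCAM-, coculture EpCAM+, monoculture EpCAM+. Among all genes of a library, Bgn ranked 11 in both coculture EpCAM- libraries and 8 in both monoculture EpCAM- libraries. Its share of the summed FPKM of the 8 genes was 91.8% in coculture EpCAM- and 91.0% in monoculture EpCAM-, and 58.6% to 59.7% in monoculture EpCAM+.

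Decorin, the closest relative of biglycan and the member named for coating collagen fibrils, followed the same order of groups at a lower level. The 2 libraries gave 75.9 and 76.3 FPKM in coculture EpCAM-, 109.5 and 110.9 in monoculture EpCAM-, 1.67 and 2.16 in coculture EpCAM+, and 0.0552 and 0.104 in monoculture EpCAM+. The groups of Dcn did not overlap. Asporin, a class I member with a run of aspartate residues in place of a glycosaminoglycan attachment site, was at 6.48 and 7.45 FPKM in coculture EpCAM- and at 42.3 and 40.1 FPKM in monoculture EpCAM-. In EpCAM+ cells Aspn stayed below 1 FPKM, at 0.460 and 0.307 in coculture and at 0.226 and 0.261 in monoculture. It had the same order of groups as Bgn and Dcn.

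Osteoglycin, also called mimecan, was the only one of the 8 genes whose mean was highest in coculture EpCAM-. It was at 54.6 and 54.7 FPKM there and at 43.4 and 42.7 FPKM in monoculture EpCAM-. Its EpCAM+ values were 1.50 and 1.35 FPKM in coculture and 0.528 and 0.395 FPKM in monoculture, again without overlap between groups.

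Of the class II members, prolargin, which anchors basement membranes to the connective tissue below, had an order of groups that no other member shared. Prelp was at 18.35 and 18.21 FPKM in monoculture EpCAM-, and the coculture EpCAM- libraries were its lowest, at 0.0250 and 0.0649 FPKM. Both EpCAM+ groups lay between these, at 0.685 and 0.736 FPKM in coculture and 0.481 and 0.427 FPKM in monoculture. Fibromodulin, a keratan sulfate proteoglycan that guides collagen cross-linking, reached 1.23 and 1.35 FPKM in monoculture EpCAM- and 0.618 and 0.475 in coculture EpCAM-. Fmod was at 0 in 1 library of each EpCAM+ group and at 0.0161 and 0.0354 FPKM in the others. Lumican, best known from the cornea and abundant in many stromas, was at 0 in the 4 EpCAM+ libraries and between 0.0152 and 0.195 FPKM in the 4 EpCAM- libraries. Podocan, which binds type I collagen, was between 0.452 and 0.471 FPKM in coculture EpCAM-, 0.726 and 0.809 in monoculture EpCAM-, and 0.0285 and 0.155 over the EpCAM+ libraries.

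**Figure D1:**
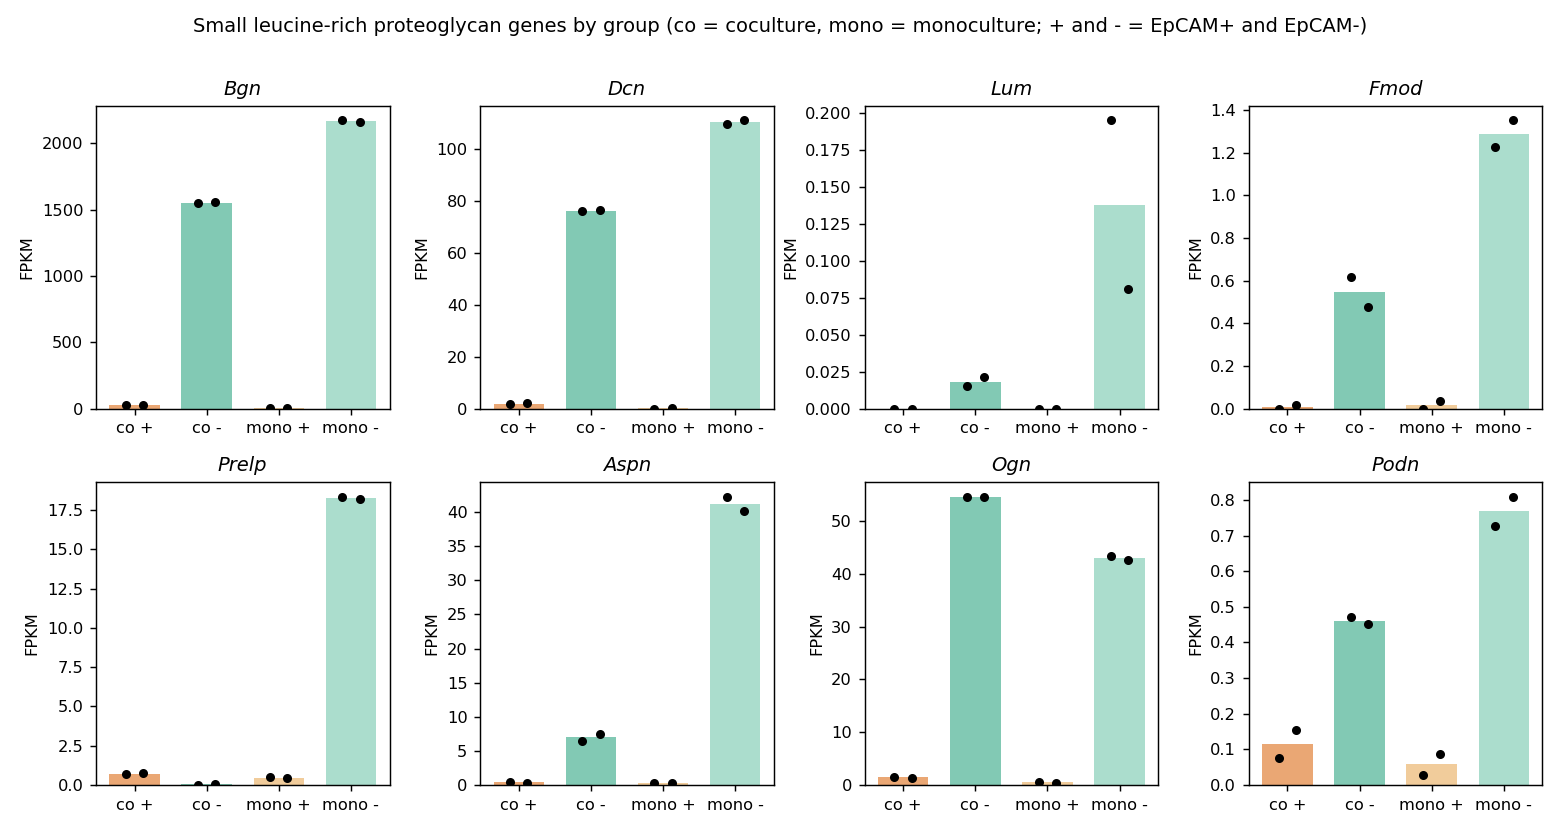
FPKM of the 8 small leucine-rich proteoglycan genes in the 4 groups, 1 panel per gene with its own linear scale. Bars are means of 2 libraries and points are the libraries. Bgn reaches about 2165 FPKM in monoculture EpCAM- while Lum stays at or below 0.195 FPKM in every library, and Prelp stands out by its single high group.

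Ordered by level, the members ran Bgn, Dcn, Ogn, Aspn, Fmod, Podn, Prelp and Lum in coculture EpCAM- cells, and no 2 neighbours in that order overlapped. In monoculture EpCAM- cells the order was Bgn, Dcn, Ogn, Aspn, Prelp, Fmod, Podn and Lum, again without overlap. The 2 orders thus differ in the place of Prelp. In monoculture EpCAM+ cells, in which Bgn alone exceeded 1 FPKM, the neighbours Ogn and Prelp, Dcn and Podn, Podn and Fmod, and Fmod and Lum overlapped. In coculture EpCAM+ cells Bgn, Dcn and Ogn led, and Fmod and Lum overlapped.

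Changes were tested with limma on log2(FPKM + 1), with the spread pooled over the 4 groups and p-values adjusted over 12012 genes that reached 1 FPKM in at least 2 libraries. A gene was called when its adjusted p was under 0.05 and its level differed at least 2-fold on that scale, which understates the change of low genes. Of the 8 members, 6 were tested. Lum and Podn were not, and Fmod and Prelp passed the filter only through monoculture EpCAM- cells, where they were highest. Their calls against that group are therefore no sign about the family. Aspn reached 1 FPKM only in EpCAM- libraries, so its calls between the fractions are a description too. The same holds for any list gene below that reached 1 FPKM in only 1 fraction. An exact test of 2 libraries against 2 cannot give a p below 0.333, so every call rests on the pooled spread.

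In coculture, EpCAM+ cells held less Bgn, Dcn, Ogn and Aspn than EpCAM- cells, and these 4 genes were called. Bgn fell by 5.79 on the log2 scale (SE 0.0298, adjusted p = 2.23e-12), which corresponds to a 57.5-fold ratio of mean FPKM. Dcn fell by 4.73 (SE 0.0718, adjusted p = 2.27e-10) and Ogn by 4.52 (SE 0.0532, adjusted p = 6.43e-11), with FPKM ratios of 39.8 and 38.3. Aspn fell by 2.52 (SE 0.0767, adjusted p = 1.3e-08). Among all tested genes, 10.1% were called lower and 16.5% higher in EpCAM+, and the median log2 difference was 0.26. Fmod, at -0.62 (adjusted p = 2.68e-05), differed by less than 2-fold on the log2(FPKM + 1) scale. Its FPKM ratio was 67.9, above that of Bgn, from means of 0.546 and 0.00804 FPKM.

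Prelp pointed the other way in coculture. Its mean was 15.8 times as high in EpCAM+ as in EpCAM- cells, from 0.711 ± 0.0358 against 0.0450 ± 0.0282 FPKM (SD, n = 2). The log2 difference of 0.71 (SE 0.0498, adjusted p = 2.47e-06) did not reach the 2-fold minimum with 1 FPKM added to every value. With 0.1 FPKM added it was 2.50 and was called, and so was Fmod at -2.58.

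In monoculture, all 6 tested members were called lower in EpCAM+ cells, where 12.6% of all tested genes were called lower and 15.5% higher. Bgn fell by 9.55 on the log2 scale (SE 0.0298, adjusted p = 1.52e-13), a 1140-fold ratio of mean FPKM. Dcn fell by 6.69 (SE 0.0718, adjusted p = 3.6e-11), with a ratio of 1388. Aspn fell by 5.09 and Ogn by 4.91, with ratios of 169.5 and 93.3. Prelp fell by 3.73 and Fmod by 1.17, and these are the 2 genes that the filter admitted through the monoculture EpCAM- libraries. The median log2 difference of all tested genes was 0.23. The 2 untested members had higher values in both EpCAM- libraries than in both EpCAM+ libraries of each culture. The share of all genes apart in this way was not counted. By limma, 87.2% of all tested genes passed the adjusted p between the fractions in coculture and 87.9% in monoculture. Between the cultures 51.4% passed in EpCAM+ and 62.7% in EpCAM- cells. Passing the adjusted p is a different measure from lack of overlap. Lack of overlap, here and for the members above, is therefore not read as particular to the family.

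**Figure D2:**
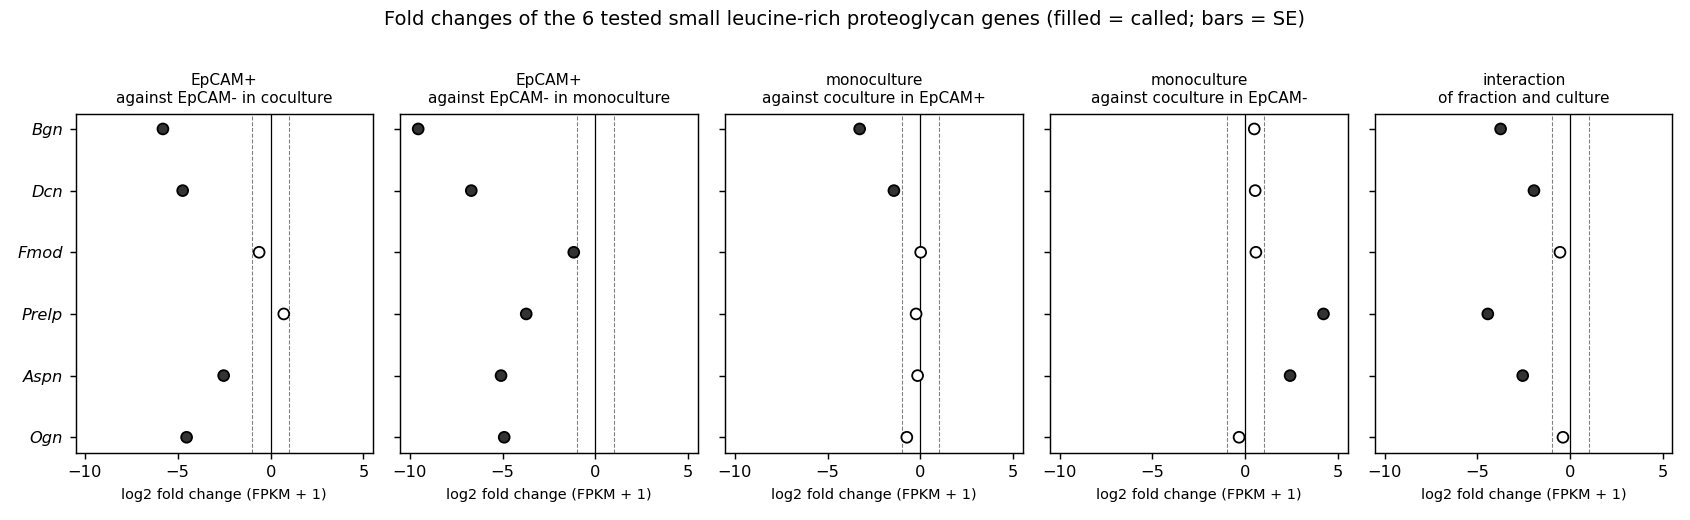
Log2 fold changes on the FPKM + 1 scale of the 6 tested members in the 5 comparisons, 1 panel each. Bars are standard errors and are hidden behind the points, filled points are called genes, and dashed lines mark 2-fold. On this scale Bgn moves the most between the fractions, from -5.79 in coculture to -9.55 in monoculture, while Prelp and Aspn are the filled points between the EpCAM- cultures.

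Bulk libraries do not show whether a low level in EpCAM+ cells comes from every cell or from a few, since fewer cells of a type and less RNA per cell cannot be told apart. The level of 12 stromal genes was therefore measured alongside: the collagen chains Col1a1, Col1a2, Col3a1, Col5a2 and Col6a3, and Acta2, Fbn1, Tagln, Prrx1, Pdgfrb, Cxcl12 and Thy1. Their median level in the coculture EpCAM+ libraries was 1.72% and 1.70% of that in coculture EpCAM- cells, over a range of 1.36% to 2.31%. In the monoculture EpCAM+ libraries it was 0.143% and 0.142%, over a range of 0.0814% to 0.472%. Bgn was at 1.74% of its EpCAM- level in coculture and at 0.0877% in monoculture, and so lay within the range of the stromal genes in both cultures. Dcn was at 2.51% and 0.0720%, means just outside that range, with 1 of its 2 libraries inside it in each culture. Ogn, at 2.61% and 1.07%, and Aspn, at 5.51% and 0.590%, lay above it in both cultures. Prelp was at 2.48% in monoculture and at 1581% in coculture, where it was higher in EpCAM+. These stromal genes were chosen with their fall in EpCAM+ cells known.

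The median share of each EpCAM+ library, times the EpCAM- mean of each gene in the same culture, was also subtracted from its levels. Results below 0 were set to 0. Bgn came to 0 and 1.42 FPKM in the coculture EpCAM+ libraries and to 0 in both monoculture EpCAM+ libraries. Dcn also came to 0 in both monoculture EpCAM+ libraries. Ogn came to 0.559 and 0.424 FPKM in coculture and to 0.466 and 0.334 in monoculture. Prelp hardly moved, at 0.685 and 0.735 FPKM in coculture and 0.455 and 0.401 in monoculture. The calls between the fractions, 4 lower in coculture and 6 lower in monoculture, kept their counts under this subtraction. It only lowers EpCAM+ values, so a fall in EpCAM+ could not become smaller. The kept counts are therefore no check of these calls.

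**Figure D3:**
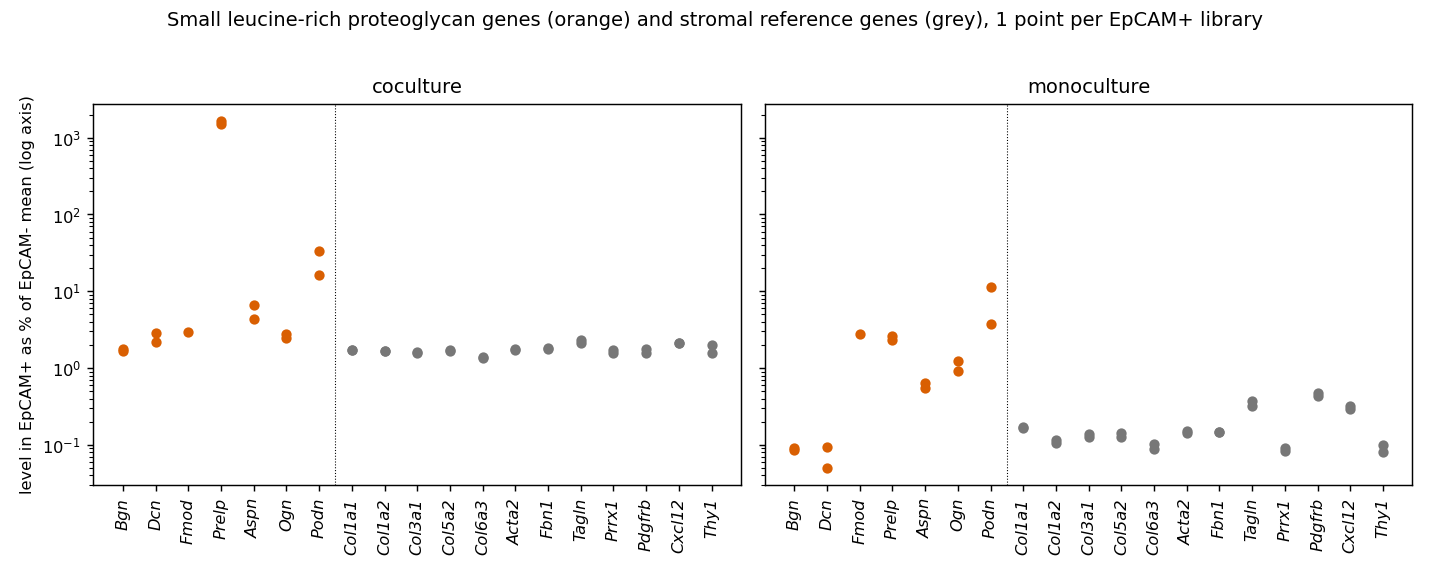
Level of each gene in the EpCAM+ libraries as a percentage of its mean in EpCAM- cells of the same culture, on a log axis, with 1 point per library. Values of 0 (1 Fmod library in each culture) and Lum are not drawn. The 12 stromal genes in grey lie between 1.36% and 2.31% in coculture and between 0.0814% and 0.472% in monoculture. Bgn lies among them in both panels, and Prelp lies at 1581% in coculture.

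Between the EpCAM- cultures, Prelp and Aspn rose in monoculture and no member was called lower. Mean Prelp was 407 times as high in monoculture as in coculture, at 18.3 ± 0.101 against 0.0450 ± 0.0282 FPKM (SD, n = 2). On the log2(FPKM + 1) scale Prelp rose by 4.21 (SE 0.0498, adjusted p = 1.34e-09), and its rank among all genes of a library moved from 14278 and 13476 to 3923 and 3918. Aspn rose by 2.41 (SE 0.0767, adjusted p = 1.28e-07), a 5.92-fold ratio of mean FPKM. Among all tested genes, 2.56% were called higher and 1.96% lower, and the median log2 difference was 0.00. Without either monoculture EpCAM- library, Prelp missed the filter, which left Aspn as the only call. With the tested genes kept as they were, Prelp stayed at 4.20 without the first of these libraries and at 4.21 without the second. Prelp needs both libraries to pass the filter, and they lie close together, at 18.35 and 18.21 FPKM. These fits are therefore no check of its rise.

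The 2 most abundant members differed little between the EpCAM- cultures. Bgn was 1.39 times and Dcn 1.45 times as high in monoculture (log2 differences 0.48 and 0.53, adjusted p = 4.78e-06 and 3.67e-04). These differences exceeded the spread between the 2 libraries of each group but not the 2-fold minimum. Ogn pointed down, at 0.787 times its coculture level (log2 difference -0.34, adjusted p = 8.2e-04), and was not called. Fmod was 2.36 times as high in monoculture by the ratio of means, at 0.57 on the log2(FPKM + 1) scale (adjusted p = 1.12e-04), and the untested Lum and Podn were 7.52 and 1.66 times as high. The sum over the 8 genes was 1688 and 1695 FPKM in the coculture EpCAM- libraries and 2388 and 2372 FPKM in the monoculture EpCAM- libraries.

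Within the chromosome 13 cluster the neighbours did not move alike. Aspn rose between the EpCAM- cultures while Ogn, 40.5 kb on, did not. Ecm2, which holds leucine-rich repeats and lies upstream of Aspn, was at 0.0842 and 0.0584 FPKM in coculture EpCAM- and at 0.586 and 0.433 FPKM in monoculture EpCAM-, a 7.15-fold ratio of means at levels too low to be tested. Omd, osteomodulin, was at 0.236 ± 0.0646 and 0.430 ± 0.183 FPKM (SD, n = 2), and all of its monoculture values were above its coculture values. Cenpp, whose span holds all 4 genes, was at 4.72 ± 0.226 FPKM in coculture EpCAM- and 5.60 ± 0.231 in monoculture EpCAM-, and was highest in coculture EpCAM+, at 9.53 ± 1.09. The part of Cenpp reads in the levels of the 4 genes was not tested. On chromosome 10, Lum was at most 0.195 FPKM beside a Dcn level of 110.2 ± 0.947 in monoculture EpCAM-, and Kera and Epyc were at 0 in all libraries. On chromosome 1, Optc was at 0.183 and 0.337 FPKM on average in the EpCAM- cells of coculture and monoculture, beside the much larger difference of Prelp.

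**Figure D4:**
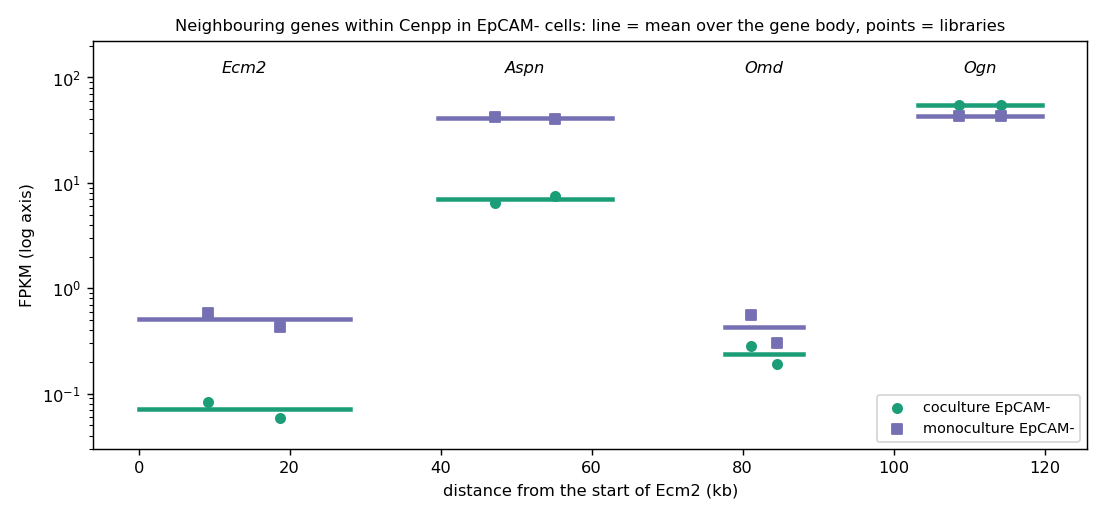
FPKM (log axis) of 4 neighbouring genes in EpCAM- cells, drawn over their gene bodies at the distance in kb from the start of Ecm2. Lines are group means and points are libraries, in green for coculture and violet for monoculture. Aspn is 5.92 times as high in monoculture, and Ogn is the gene whose monoculture line lies below its coculture line.

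In EpCAM+ cells, Bgn and Dcn fell from coculture to monoculture, and these were the only calls among the 6 tested members. Bgn fell by 3.27 on the log2 scale (SE 0.0298, adjusted p = 7.12e-10), from 27.0 ± 1.10 to 1.90 ± 0.0724 FPKM (SD, n = 2). Dcn fell by 1.43 (SE 0.0718, adjusted p = 3.75e-06), from 1.91 ± 0.347 to 0.0794 ± 0.0342 FPKM. By the ratio of means Dcn fell further than Bgn, to 0.0415 times its coculture level against 0.0703 times. Ogn was at -0.73 (adjusted p = 2.54e-05), and at -1.01 with 0.5 FPKM added in place of 1, where it was called. Prelp was at -0.23, Aspn at -0.15 and Fmod at 0.01. Among all tested genes, 1.67% were called lower and 0.266% higher in monoculture EpCAM+, and the median was -0.06. The median share of the stromal genes fell between the same libraries, from 1.72% and 1.70% to 0.143% and 0.142%. After the share was subtracted, Bgn was at -0.64 (adjusted p = 0.152) and Dcn at -0.67 (adjusted p = 0.0034), and neither was called. Bgn was then at 0 and 1.42 FPKM in the coculture EpCAM+ libraries, which widened its spread. Both genes were at 0 in the monoculture EpCAM+ libraries because results below 0 were set to 0. Their differences after subtraction depend on that limit.

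The difference between the culture effects of the 2 fractions was tested as an interaction, taken as the monoculture minus coculture change in EpCAM+ less that in EpCAM-. Prelp (-4.44, SE 0.0704, adjusted p = 6.85e-09), Bgn (-3.75, SE 0.0421, adjusted p = 1.75e-09), Aspn (-2.56, SE 0.108, adjusted p = 8.16e-07) and Dcn (-1.96, SE 0.102, adjusted p = 2.24e-06) were called. All 4 were called lower, as were 5.66% of all tested genes, while 2.43% were called higher. For Prelp and Aspn the EpCAM- term was the larger one, at 4.21 and 2.41, beside -0.23 and -0.15 in EpCAM+. For Bgn and Dcn it was the EpCAM+ term, at -3.27 and -1.43, beside 0.48 and 0.53 in EpCAM-. These terms share the libraries from which the interaction is built. With the stromal share subtracted, Bgn was at -1.12 (adjusted p = 0.0699) and no longer called. Prelp, Aspn and Dcn were still called, at -4.47, -2.50 and -1.20. The loss for Bgn came through the adjusted p, since its 2 coculture EpCAM+ libraries then stood at 0 and 1.42 FPKM. Its culture difference in EpCAM- cells, which the subtraction leaves alone, stayed at 0.48 while its adjusted p went from 4.78e-06 to 0.249. Ogn, at -0.39 and not called, turned to 0.25 with the share subtracted.

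The genes with the pattern most like each member were found by the root mean square difference of centred log2(FPKM + 1) over the 8 libraries. The search covered 9268 tested genes that averaged at least 5 FPKM in some group. Members and genes with Gm numbers or Rik names were left out. A value of 0 would mean the same profile up to a constant, and the 8 points fall into only 4 groups. Nearest to Bgn were Col1a2 (0.22), Acta2 (0.25) and Col1a1 (0.29), a pair of type I collagen chains and smooth muscle actin. Nearest to Dcn were Galnt18 (0.17), Mrc2 (0.19), which encodes a collagen uptake receptor, and Ccdc80 (0.19). Ogn was nearest to Prl2c2 (0.13), Aebp1 (0.13) and Adam19 (0.14). Aspn was nearest to Atoh8 (0.08), Kcnab1 (0.18) and the homeobox gene Prrx2 (0.20). Prelp was nearest to Ptn (0.20), which encodes the growth factor pleiotrophin, then Igfbp2 (0.30) and Bmp4 (0.34). Fmod was nearest to Rras2 (0.05), Acat1 and Arhgap23 (0.06 each), at small distances that go with its narrow range of levels. Likeness on this scale is not likeness in ratio of levels. In coculture mean Fmod was 67.9 times as high in EpCAM- as in EpCAM+ cells, from values near 0. Rras2 averaged 46.0 FPKM in coculture EpCAM- and 29.7 in coculture EpCAM+. Among the members themselves, Dcn and Ogn were the closest pair (0.64), ahead of Aspn and Ogn (1.09) and Bgn and Dcn (1.18), and Bgn and Fmod were the farthest apart (3.58).

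A further 10 genes of the wider family were looked up, and 2 passed the filter. Tsku, tsukushi, which binds several secreted signalling proteins, was at 16.1 ± 1.13 FPKM in coculture EpCAM- and at 3.50 ± 0.0720 in coculture EpCAM+, and fell by 1.93 (adjusted p = 4.08e-08). In monoculture it was at 8.80 ± 0.0516 in EpCAM- and 5.55 ± 0.609 in EpCAM+ and was not called. Its interaction was 1.34 (adjusted p = 1.38e-05), opposite in sign to those of the 4 called members. Podnl1, the closest relative of Podn, averaged 1.78 and 1.87 FPKM in the EpCAM- cells of coculture and monoculture. It was at most 0.0951 FPKM in any EpCAM+ library and was called lower in EpCAM+ in both cultures. Podnl1 passed the filter only through EpCAM- cells, where it was higher, so these calls are a description. Kera and Epyc were at 0 in all libraries, and the means of Nyx, Chad, Chadl, Optc, Omd and Ecm2 stayed below 1 FPKM in every group.

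The enzymes that build and sulfate the glycosaminoglycan chains were mostly lower in EpCAM+ cells where they were called. Of 28 listed genes 23 were tested, of which 12 were called lower and 1 higher in coculture (median -1.27), and 11 lower and 1 higher in monoculture (median -0.88). Over all tested genes 10.1% were called lower and 16.5% higher in coculture (median 0.26), and 12.6% and 15.5% in monoculture (median 0.23). The gene called higher in coculture, Chst7 at 1.05, was at 0.98 and not called without coculture EpCAM+ replicate 2. Csgalnact1, at -1.01 in monoculture, was at -0.99 and not called without monoculture EpCAM+ replicate 1, nor was it called without monoculture EpCAM- replicate 2. Dse, which turns chondroitin into dermatan sulfate, changed by -3.48 in coculture and -3.80 in monoculture, with EpCAM- against EpCAM+ levels of 31.5 ± 0.0865 against 1.91 ± 0.128 FPKM and of 38.6 ± 0.148 against 1.86 ± 0.212 FPKM (SD, n = 2). Chst11 and Chst12, which sulfate chondroitin, changed by -3.77 and -2.54 in coculture, and Chst1, a keratan sulfate sulfotransferase, by -2.59 in coculture and -4.12 in monoculture. Between the EpCAM- cultures 1 of the 23 was called in each direction: Chst11 fell by 2.12 (adjusted p = 2.09e-08), from 76.0 ± 2.22 to 16.7 ± 0.528 FPKM, and Chst1 rose by 1.39 (adjusted p = 5.96e-07). No gene of this list was called between the EpCAM+ cultures by limma. There 11 of the 23 passed the adjusted p alone, as did 51.4% of all tested genes.

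All 14 listed collagen chains to which these proteoglycans bind were tested. In EpCAM+ cells 10 were called lower and 3 higher in coculture (median -3.29), and 10 lower and 1 higher in monoculture (median -2.65), against the same shares and medians over all tested genes. The fibrillar chains Col3a1, Col1a2, Col1a1 and Col5a2 changed by -5.87, -5.87, -5.84 and -5.77 on the log2 scale in coculture, beside -5.79 for Bgn. They changed by -8.37, -9.35, -8.99 and -8.29 in monoculture, beside -9.55 for Bgn. From coculture to monoculture, 8 of the 14 were called lower in EpCAM+ cells, where 1.67% of all tested genes were. Col1a2 was at -3.55 and Col1a1 at -3.39, again beside the stromal share given above. Col6a1 and Col6a2 also fell, from 229 and 226 FPKM to 87.9 and 89.9 FPKM. Unlike the stromal genes, in coculture both were lower in EpCAM- than in EpCAM+ cells, at 36.8 and 16.3 FPKM. In EpCAM- cells the type VI chains Col6a2 and Col6a1 rose by 3.02 and 2.61 in monoculture, and the minor fibrillar chains Col11a1 and Col5a3 fell, at -2.44 and -1.99.

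Of 16 listed proteases and enhancers that act on these proteoglycans or on procollagen, 14 were tested. In coculture EpCAM+ cells 9 were called lower and 1 higher (median -1.93), and 7 lower and 1 higher in monoculture EpCAM+ (median -0.97). The shares over all tested genes were 10.1% lower and 16.5% higher in coculture and 12.6% and 15.5% in monoculture, with medians of 0.26 and 0.23. Pcolce, which speeds procollagen processing by BMP1, was at -5.57 and -7.94 in the 2 cultures, and the gelatinase Mmp2 at -4.58 and -5.40. Between the EpCAM- cultures 3 of the 14 rose and 4 fell in monoculture. The collagenase Mmp13 and the gelatinase Mmp9 fell, at -3.33 and -2.95, and the proteoglycan-cleaving Adamts5 and Adamts1 rose by 1.77 and 1.71. Mmp13 passed the filter only through coculture EpCAM- cells, where it was highest, so its call against that group is a description. Of the 14, Pcolce was the gene called lower between the EpCAM+ cultures, by 1.86, and 1 gene was called higher.

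Receptors and growth factors that these proteoglycans bind showed no common direction. Of 28 listed, 26 were found in the files under the listed names and 22 were tested, of which 6 were called higher and 5 lower in coculture EpCAM+ (median 0.52), and 7 higher and 4 lower in monoculture EpCAM+ (median 0.02). Over all tested genes 16.5% were called higher and 10.1% lower in coculture (median 0.26), and 15.5% and 12.6% in monoculture (median 0.23). Tnf rose by 4.29 and 4.38 in EpCAM+ cells, and the endocytic receptor Lrp1, which takes up decorin, fell, at -2.49 and -2.27. Met, a receptor that decorin binds, rose by 2.13 in coculture EpCAM+. Between the EpCAM- cultures 3 of the 22 were called higher and 2 lower in monoculture, where 2.56% and 1.96% of all tested genes were called. Bmp4 rose by 4.92 (adjusted p = 1.17e-09), from 0.0816 ± 0.0634 to 31.8 ± 0.0656 FPKM (SD, n = 2), and so had, like Prelp, 1 high group among 4. Like Prelp, Bmp4 passed the filter only through monoculture EpCAM- cells, so its call against that group is a description. Bmp6 rose by 1.76 and Tgfb1 fell by 1.28. The third gene called higher, Dag1, which encodes the matrix receptor dystroglycan, was at 8.66 and 36.7 FPKM in coculture EpCAM- and 53.0 and 53.7 FPKM in monoculture EpCAM-. Its change of 1.51 (adjusted p = 0.0318) was 0.53 without coculture EpCAM- replicate 1, the low library, and was not called. Dag1 was also called higher in coculture EpCAM+, at 1.60, and was at 0.62 and not called without that library. Leaving out either library of the group compared with coculture EpCAM- also ended its call. None of the 22 was called between the EpCAM+ cultures, where 17 passed the adjusted p alone, as did 51.4% of all tested genes.

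Of 18 other matrix proteoglycan and link protein genes, 5 were tested, and they split by fraction. Perlecan (Hspg2), versican (Vcan) and Cspg4 were called lower in EpCAM+ cells of both cultures, with Vcan at -4.54 in coculture and -4.52 in monoculture and Hspg2 at -5.22 in coculture. Agrin (Agrn) and Col18a1, both basement membrane proteoglycans, were called higher, with Col18a1 up by 4.20 and 4.09. None of the 5 was called between the EpCAM- cultures by limma. There all 5 passed the adjusted p alone, as did 62.7% of all tested genes. Between the EpCAM+ cultures 1 of the 5 was called lower.

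Markers of cell types in which these proteoglycans are classically abundant were read beside the 2 genes that rose in monoculture EpCAM- cells. Tendon markers (Scx, Tnmd, Mkx, Thbs4) summed to 1.08 to 1.23 FPKM in coculture EpCAM- and 3.32 to 3.45 in monoculture EpCAM-, with Thbs4 at 0 in both. Cartilage markers (5 of 6 listed genes found) summed to 1.23 to 1.28 and 3.65 to 3.74 FPKM, with Acan at 0. Both sums were higher in EpCAM+ cells, at 25.0 to 26.6 and 88.6 to 94.8 FPKM, mostly from Scx and Sox9. Bone markers summed to 10.9 FPKM in both coculture EpCAM- libraries and 7.32 to 7.56 in monoculture EpCAM-. Markers of pericytes and smooth muscle summed to 1852 to 1867 FPKM in coculture EpCAM- and to 2733 to 2813 in monoculture EpCAM-. Most of this came from Acta2, at 1419 and 2023 FPKM on average, and Tagln, at 345 and 628. In each of the 2 groups 5 of the 8 reached 1 FPKM, while Rgs5, Des and Myh11 averaged at most 0.464 FPKM. The part of these cell types in the levels of Prelp and Aspn was not tested.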

How the data were processed

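Total RNA of the sorted fractions was sequenced as paired-end reads, per the labels' protocols. The authors deposited 1 table of FPKM per gene for each of the 8 libraries. Per the submitters' processing notes, HISAT2, HTSeq and edgeR were used with the build mm10, along with cutadapt, SAMtools and FastQC, and no version is named. The annotation, the use of strand, the gene lengths and any scaling between libraries are not named there. Depth is unknown, so no counting interval is given. Of 24421 genes, 6547 were at 0 in all libraries.

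From these values, log2(FPKM + 1) was fitted with limma 3.58.1 in R 4.3.3 (4 group means over 8 libraries, 4 residual degrees of freedom, moderated variance with a trend, two-sided) for genes of at least 1 FPKM in at least 2 libraries, 12012 in all, with Benjamini-Hochberg adjustment over them. There were 5 comparisons, and a call needs an adjusted p under 0.05 and a change of at least 2-fold. The procedure was tested on simulated data. Groups came from the labels. The members, the gene lists and the stromal genes were chosen with earlier results of these data known. The text names all 8 members, Epcam and Col1a1 as checks, family relatives, from each list and comparison up to 4 called genes whose higher group averaged 5 FPKM or more, and the 3 genes most like each tested member. Chst11, Chst12, Agrn, Cspg4 and other list genes come from that rule. Chst7, Csgalnact1, Scx, Sox9, Cenpp, Rgs5, Des, Myh11 and the marker genes at 0 were singled out after their values were seen. Alternatives changed the pseudocount, filter, scaling, variance model and libraries, added the replicate number as a block, or subtracted the stromal share.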

Additional observations from a re-analysis of the deposited data

Results flagged for a closer look

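By the interaction test, the culture differences of 4 genes differed between the 2 fractions (limma, Benjamini-Hochberg adjusted over 12012 genes, 2 libraries per group). The interaction was -4.44 on the log2(FPKM + 1) scale for Prelp, -3.75 for Bgn, -2.56 for Aspn and -1.96 for Dcn. Prelp was tested only because it passed the filter through monoculture EpCAM- cells, the group that sets its interaction, so its call is a description and not a finding. Aspn was higher in both monoculture than in both coculture libraries of EpCAM- cells, and its culture difference in EpCAM+ cells was -0.15 and not called. Bgn and Dcn were 1.39 times and 1.45 times as high in monoculture EpCAM- as in coculture EpCAM- cells, and their larger change was in EpCAM+ cells, where the median stromal share also fell from 1.72% and 1.70% to 0.143% and 0.142%. With that share subtracted, the Bgn interaction was -1.12 (adjusted p = 0.0699) and no longer called, and that of Dcn was -1.20. The Bgn call was lost through the adjusted p and not the 2-fold minimum. The subtraction, with values below 0 set to 0, left Bgn at 0 and 1.42 FPKM in the coculture EpCAM+ libraries, which widened its spread.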

How the results depend on the processing

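Over the alternatives in which a member could be tested, 635 member fold changes kept their direction and call, 3 lost a call, 19 gained one and 2 changed sign. Some alternatives cannot move a fold change: another variance model, the replicate block, or leaving out a library outside the comparison. The counts also include the fits with the tested genes kept, described below. The 635 is therefore no measure of how robust the results are. Between the EpCAM+ cultures, the 2 members called became 0 with the stromal share subtracted and 4 with no minimum change. Between the EpCAM- cultures, the 2 became 6 with no minimum change and 1 to 2 when 1 library was left out. The 1 arises without either monoculture EpCAM- replicate, because Prelp and Fmod then miss the filter and go untested. The members called between the fractions in monoculture likewise go from 6 to 4 and those in the interaction from 4 to 3. An alternative that kept the tested genes was chosen after seeing the data. It holds in genes that need the omitted library to pass the filter, so it is no check of these calls. The sign changed for Fmod between the EpCAM+ cultures without monoculture EpCAM+ replicate 2 (-0.0115, against 0.0136 with all libraries and 0.0387 without replicate 1), and for the Ogn interaction with the share subtracted (0.25, adjusted p = 0.0356, -0.39 otherwise). With a pseudocount of 0.1, Fmod was called between the EpCAM- cultures (1.11), and Fmod and Ogn (-1.11) in the interaction. Equal replicate numbers did not pair the samples (correlations of replicate differences -0.0726 to 0.0406), and the fits with a replicate block called 4, 6, 2, 2 and 4 members in the 5 comparisons, the same counts as without it. Over all genes, calls rose from 3188, 3372, 233, 543 and 972 to 10473, 10554, 6170, 7527 and 7826 with no minimum change. With a pseudocount of 0.1, calls were 562 and 910 between the cultures of EpCAM+ and EpCAM- and 1613 in the interaction. Scaling by the median of ratios moved the median of all genes from 0.26 to 0.00 in coculture and from 0.23 to 0.02 in monoculture, and the calls from 1976 higher and 1212 lower to 1488 and 1500 in coculture and from 1860 and 1512 to 1444 and 1815 in monoculture. Quantile scaling gave 364 higher and 503 lower in the interaction, against 292 and 680. Depth is unknown, so values under 1 FPKM, as for Lum, Fmod, Podn and coculture Prelp, have no counting error here.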
